A study of Mus musculus with 25 samples.

Results

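Blood leukocyte microRNAs were read in mouse mammary tumours and normal mammary gland from 5 entries of the array: mmu-miR-142-3p, mmu-miR-142-5p, mmu-miR-223-3p, mmu-miR-155-5p and mmu-miR-150-5p, given below without the species prefix. They were taken by their exact names in the scanner files, and they are 5 of 1122 mouse miRNAs on the array and 5 of the 330 that passed a filter on detection. Total RNA came from snap-frozen tissue of female mice of the FVB strain, was labelled with Cy3 and was hybridised to 25 one-colour Agilent miRNA arrays, 1 per sample. The Met group held 7 tumours of the genotype MMTV-Met, a Met transgene under the mouse mammary tumour virus promoter. The MetTrp53 group held 8 tumours of the genotype MMTV-Met;Trp53fl/+, and the Trp53 group held 8 tumours of the genotype Trp53fl/+. The series' design text adds Cre to both groups that carry the floxed Trp53 allele and not to the Met group, and the driver of Cre is not given in the sources used here. The normal group held 2 pools of wild-type mammary tissue, pool 1 from multiparous and pool 2 from nulliparous females. The number of animals in a pool, and whether the lymph node of the mammary fat pad was removed, are not given in the sources used here.

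Parity and pathology were unevenly spread over the genotypes. Of the 7 Met tumours, 6 came from multiparous females and 1 had no stated parity, whereas 6 of 8 MetTrp53 tumours and 3 of 8 Trp53 tumours came from nulliparous females. Spindloid pathology, the class of spindle-shaped tumour cells, was given for 1 Met, 3 MetTrp53 and 3 Trp53 tumours. All 3 solid nodular carcinomas were Met tumours, and 1 MetTrp53 tumour had no stated pathology. The labels do not say that each tumour came from a different animal, and tumours 2 and 3 and tumours 4 and 8 of the Trp53 group share a number in their titles, so the p-values measure only the spread between these samples.

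MicroRNAs bind messenger RNAs mainly through the seed near their 5′ end and lower the output of those messages. miR-142 is made in nearly all blood cell lineages and both arms of its precursor are used, miR-223 is a microRNA of neutrophils, monocytes and their precursors, miR-150 is abundant in mature B and T lymphocytes, and miR-155 is induced in activated lymphocytes and macrophages. In a whole tumour their signal is commonly read as a sign of leukocytes, although miR-155 has also been described in tumour cells. In bulk tissue, fewer cells of a type and less RNA per cell cannot be told apart.

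The mature sequences show that these are distinct regulators and not 1 family, which is why they are given here with the seed, bases 2 to 8, in capitals. Of the 5, 4 were matched in the RefSeq table used here (GRCm38.p6, all on the plus strand), with both miR-142 arms listed there as miR-142a.
miR-142-3p (chr11:87756903-87756925): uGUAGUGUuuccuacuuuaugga
miR-142-5p (chr11:87756867-87756887): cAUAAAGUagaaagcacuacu
miR-223-3p (chrX:96242884-96242905): uGUCAGUUugucaaauacccca
miR-155-5p (chr16:84714143-84714165): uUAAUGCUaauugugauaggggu
The 4 sequences had 4 different seeds, and each seed was held by 1 of the 1738 mature entries of the table. miR-142-3p and miR-142-5p are the 2 arms of 1 hairpin on chromosome 11 and so share a transcript.

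Levels are log2 of the processed intensity after it was averaged over the spots of a probe and scaled per array. The scale was the array's 75th percentile over 221 probes that lay well above background on all arrays. Values below 0.02117 of that percentile were set to it, which puts the floor at 3.60. The 75th percentile itself ran between 279 and 909 intensity units, and between 220 and 334 mouse miRNAs were detected per array, with the lowest of both in Met tumour 1. Array brightness limits the precision of the dim members, and probe levels say nothing about the order of one miRNA against another. miR-142-3p and miR-223-3p were detected on all 23 tumour arrays, miR-155-5p on 22, miR-142-5p on 19 and miR-150-5p on 6. miR-150-5p therefore passed the filter through the 2 normal pools. Each member had 2 probes, and no member spot was saturated. The probes of miR-142-3p differed by a steady 1.11 (median, log2) and those of miR-223-3p by 1.85, while the dimmer probe of miR-155-5p lay at the floor on 10 arrays and understates its differences there. The passenger arms miR-150-3p, miR-155-3p and miR-223-5p were detected on 0 of 25 arrays.

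**Figure D1:**
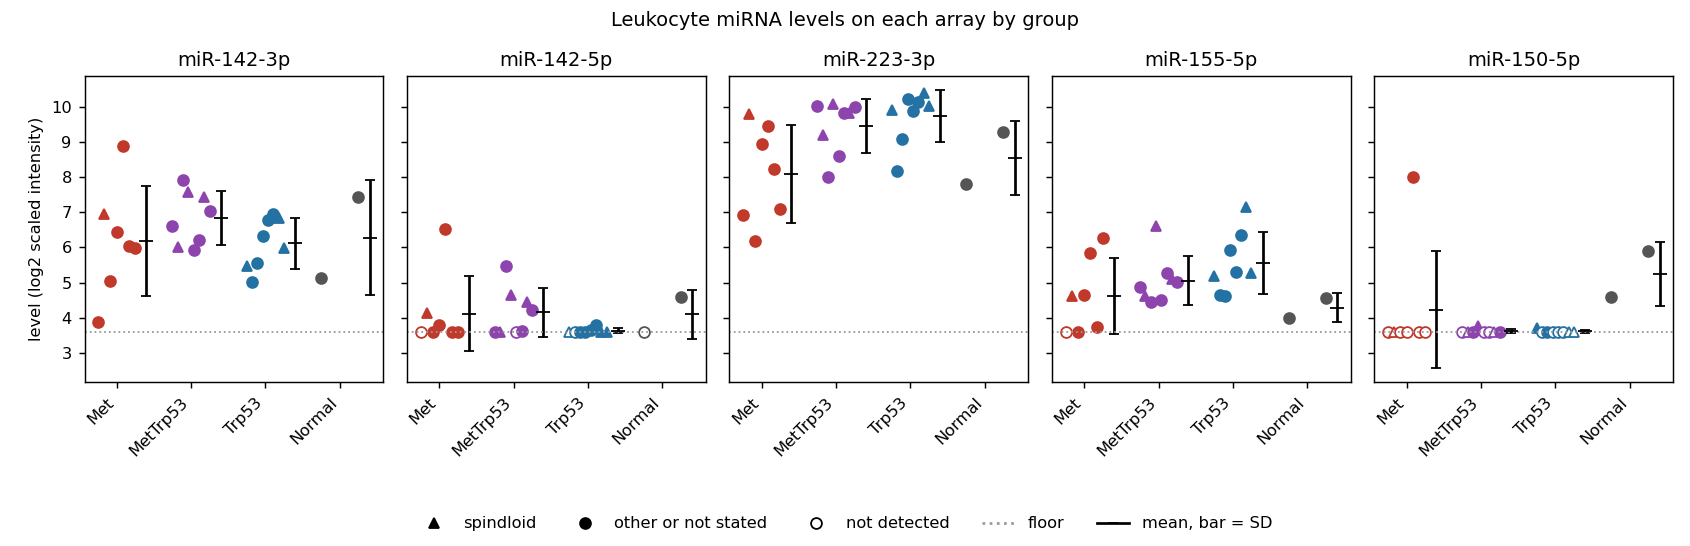
Level of each leukocyte miRNA (y axis, log2 scaled intensity) on every array, by group (x axis), with triangles for spindloid tumours, open symbols where the miRNA was not detected, a dotted line at the floor and a bar for the mean with its SD. miR-223-3p is spread between 6.17 and 9.78 in Met tumours and lies at or above 8.00 in both other tumour groups, and the single high point for miR-150-5p is Met tumour 5.

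miR-223-3p, the myeloid microRNA, was the only member called between tumour genotypes, and only in Met minus Trp53. It was not called by the F-test over the 3 genotypes (limma, adjusted p = 0.0746). In Met tumours its level was 6.17 at the lowest, 8.22 at the median and 9.78 at the highest. In MetTrp53 tumours the lowest, median and highest were 8.00, 9.83 and 10.07, and in Trp53 tumours they were 8.17, 9.97 and 10.40. The Met tumours were both lower and more scattered, and 3 of 7 lay below every Trp53 tumour, while none lay above them all. The mean was 8.09 ± 1.38 in Met tumours (SD, n = 7) and 9.73 ± 0.74 in Trp53 tumours (SD, n = 8).

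Met minus Trp53 was -1.64 for miR-223-3p (SE 0.50, 95% interval -2.68 to -0.60, limma, adjusted p = 0.0422), so that its level was 3.11-fold lower in Met tumours. In that comparison 10% of the 330 tested miRNAs were called, 4.55% higher and 5.45% lower. Within the 5 array slides, Met minus Trp53 was -2.12, -1.67, -0.93, -1.43 and -2.90, lower on every slide. Slides 3 and 5 each held 1 Met and 1 Trp53 tumour. Slide 1 held 1 Met and 2 Trp53 tumours, and slides 2 and 4 held 2 of each. Solid nodular carcinomas were among the Met tumours of slides 1, 2 and 4. The call was lost in 10 of 15 fits that left out 1 tumour, namely Met tumours 1, 3, 6 and 7 and Trp53 tumours 1, 4, 5, 6, 7 and 8, with differences between -1.92 and -1.32 over all 15. Without the 3 solid nodular carcinomas, a choice made after seeing the values, the difference was -0.90 (SE 0.51, limma, adjusted p = 0.302).

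The other members gave no call between Met and Trp53 tumours. miR-155-5p, the microRNA of activated lymphocytes and macrophages, had 3.60, 4.62 and 6.28 as its lowest, median and highest level in Met tumours, and 4.62, 5.28 and 7.15 in Trp53 tumours. Met minus Trp53 was -0.94 (SE 0.44, limma, adjusted p = 0.187), with 3 of 7 Met tumours below all Trp53 tumours. Without the 3 solid nodular carcinomas the difference was -0.21 (SE 0.46, limma, adjusted p = 0.825), and 0 of the 4 Met tumours left lay below all Trp53 tumours. The slides did not share the direction, since slide 5, with 1 tumour of each genotype, gave 1.01 and the other 4 gave between -1.96 and -0.65. miR-142-3p, the pan-leukocyte microRNA, had a Met minus Trp53 difference of 0.06 with a 95% interval from -1.09 to 1.20 (limma, adjusted p = 0.988). The interval is wide on both sides of 0, so an equal level is not shown.

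MetTrp53 tumours lay near Trp53 tumours in miR-223-3p. MetTrp53 minus Met was 1.36 (SE 0.50, 95% interval 0.32 to 2.39, limma, adjusted p = 0.117), with 5 of 8 MetTrp53 tumours above every Met tumour. Within the 5 slides it was 3.09, 1.23, 0.08, 0.38 and 2.80, with 1 or 2 tumours of each genotype on a slide. No miRNA of the 330 was called in this comparison (0.0%), although 61 had an unadjusted p under 0.05. MetTrp53 minus Trp53 was -0.28 (SE 0.48, limma, adjusted p = 0.929), again with 0.0% of miRNAs called and 23 at an unadjusted p under 0.05. It was -0.50 without Trp53 tumour 2 and -0.0757 without MetTrp53 tumour 3, the lowest and highest over the arrays left out in turn. Across the 3 genotypes together miR-223-3p gave an F-test adjusted p of 0.0746 in limma, where 5.76% of miRNAs were called and none of the members. These comparisons share samples, so they are not separate evidence.

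The order of groups differed for miR-142. miR-142-3p was 6.84 ± 0.76 in MetTrp53 tumours (SD, n = 8), 6.18 ± 1.56 in Met tumours (SD, n = 7) and 6.12 ± 0.73 in Trp53 tumours (SD, n = 8), which does not part the groups beyond their spread. MetTrp53 minus Met was 0.66 (SE 0.55, limma, adjusted p = 0.548) and MetTrp53 minus Trp53 was 0.72 (SE 0.53, limma, adjusted p = 0.874), with 4 of 8 MetTrp53 tumours above every Trp53 tumour. The partner arm miR-142-5p was near the floor in most tumours, with levels up to 6.52 in Met, 5.48 in MetTrp53 and only 3.81 in Trp53 tumours. It lay above every Trp53 tumour in 4 of 8 MetTrp53 tumours and 2 of 7 Met tumours, and neither difference was called.

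miR-150-5p, the lymphocyte microRNA, was close to the floor in nearly all tumours and above it in both normal pools. Its level was 3.60 at the floor in 6 of 7 Met, 7 of 8 MetTrp53 and 7 of 8 Trp53 tumours, with 8.01 in Met tumour 5, 3.78 in MetTrp53 tumour 4 and 3.70 in Trp53 tumour 1. The normal pools had 4.60 and 5.89. So 22 of 23 tumours lay below both pools and 1 lay above both. As miR-150-5p passed the filter on detection only through these pools, where it is high, its differences from normal are given as a description and support nothing. Tumours minus normal was -1.42, and none of the members was among the 12.7% of miRNAs called in that comparison, of which 4.85% were higher and 7.88% lower. With Met tumour 5 left out the difference was -1.63, and the other 22 tumours lay at 3.60 to 3.78. With normal pool 1 left out it was -2.07 and with pool 2 left out -0.78, so its size depended on the pool. Values at the floor make this difference smaller than it would be without a floor.

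The remaining members did not part tumours from normal gland. miR-223-3p had 7.81 and 9.28 in the pools, and tumours minus normal was 0.54 (SE 0.71, limma, adjusted p = 0.761). miR-155-5p was above both pools, at 3.99 and 4.57, in 18 of 23 tumours and in all 8 Trp53 tumours. Trp53 minus normal was 1.28 for miR-155-5p (SE 0.67, limma, adjusted p = 0.245) in a comparison where 13.3% of miRNAs were called, 5.45% higher and 7.88% lower. Met minus normal and MetTrp53 minus normal, with 12.4% and 14.8% of miRNAs called, also held no call among the members. Of all tested miRNAs, 3.94% were higher and 8.48% lower in Met tumours than in normal gland, and 6.36% were higher and 8.48% lower in MetTrp53 tumours. The genotype comparisons with normal share the same 2 pools.

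**Figure D2:**
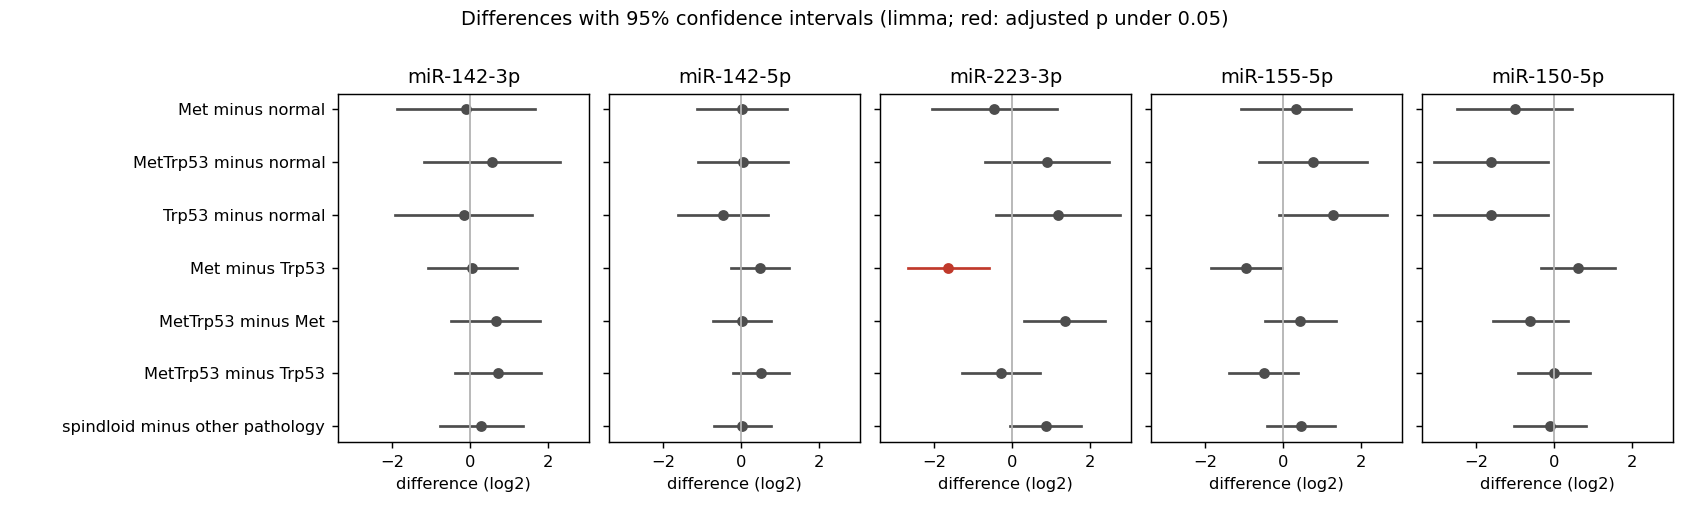
Difference in level (x axis, log2) with its 95% confidence interval for each leukocyte miRNA and each comparison (y axis), from limma. Only Met minus Trp53 of miR-223-3p, at -1.64, is drawn in red for an adjusted p under 0.05, and the intervals against the 2 normal pools are the widest.

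The pools themselves differed in all 5 members. miR-142-3p was 7.44 in pool 2, from nulliparous females, and 5.12 in pool 1, from multiparous females, a difference of 2.31. The same difference was 1.47 for miR-223-3p, 1.29 for miR-150-5p, 0.99 for miR-142-5p and 0.58 for miR-155-5p. In pool 1 miR-142-5p was at the floor and not detected, so its 0.99 depends on the floor. Over the 330 tested miRNAs the median size of this difference was 0.15, and 99.7% of them differed by less than miR-142-3p did. That share was 98.8% for miR-223-3p, 97.6% for miR-150-5p, 93.9% for miR-142-5p and 85.2% for miR-155-5p. The pools sat on different slides as well as coming from females of different parity, and with 1 pool of each kind these cannot be told apart.

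Pathology was the other label the members could be read against. In the 7 spindloid tumours miR-223-3p had a lowest, median and highest level of 9.21, 9.92 and 10.40. The 15 tumours of other stated pathology had 6.17, 8.95 and 10.23. Spindloid tumours formed a narrow band, with an SD of 0.36 against 1.27 in the others, and the 3 intermediate tumours, at 9.83, 9.88 and 10.13, fell inside it. With genotype in the model, spindloid minus other pathology was 0.87 (SE 0.43, 95% interval -0.04 to 1.77, limma, adjusted p = 0.415). No miRNA was called in that comparison (0.0%), with 41 at an unadjusted p under 0.05.

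The 3 solid nodular carcinomas lay at the other end. They had 6.93, 6.17 and 8.22 for miR-223-3p in Met tumours 1, 3 and 6. For miR-155-5p they had 3.60, 3.60 and 3.73, the lowest of all tumours. For miR-142-3p they had 3.88, 5.04 and 6.04, and miR-142-5p and miR-150-5p were at the floor in all 3. All of these tumours are Met tumours, so this pathology and the genotype cannot be told apart for them. These are levels with no test, since the class was singled out after its values were seen.

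Met and Trp53 tumours of 1 class could be set side by side for miR-223-3p only in small numbers. The only spindloid Met tumour had 9.78, against 9.92, 10.01 and 10.40 in the spindloid Trp53 tumours. The only Met tumour labelled plainly adenocarcinoma had 7.11, against 8.17 and 10.23 in the Trp53 tumours with that label. Met tumour 5, a scirrhous adenocarcinoma, had 9.45, which lies between those Trp53 values. Trp53 tumour 3, a poorly differentiated adenocarcinoma, had 9.08. Among multiparous females all 6 Met tumours, at 6.17 to 9.78, lay below both Trp53 tumours, at 10.13 and 10.40. In that order, those Trp53 tumours were intermediate and spindloid. Of the 6 Met tumours, the spindloid tumour at 9.78 alone was of either class, so parity was matched here and pathology was not. With parity as a covariate the difference was -1.79 and no longer called (SE 0.72, limma, adjusted p = 0.292). That fit used only tumours of stated parity, without 1 Met and 3 Trp53 tumours, and held no nulliparous Met tumour. With spindloid pathology as a covariate, in tumours of stated pathology, the difference was -1.44 (SE 0.48, limma, adjusted p = 0.0903).

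**Figure D3:**
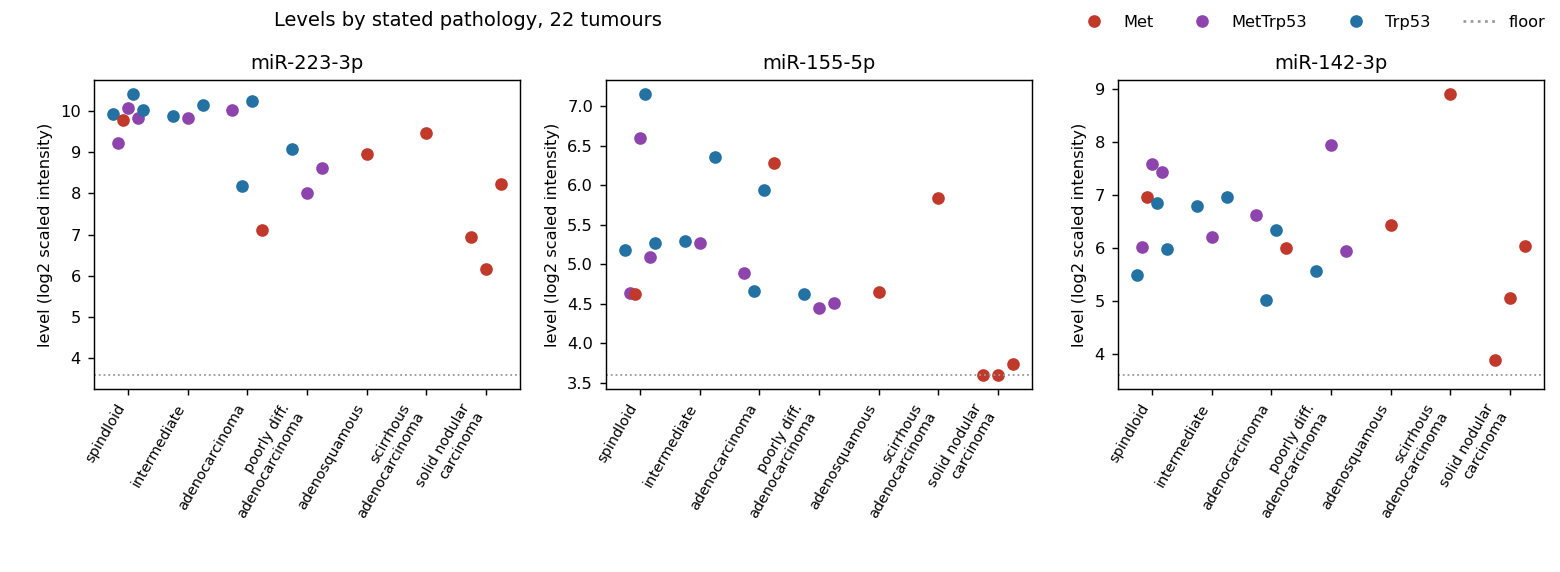
Level (y axis, log2 scaled intensity) of miR-223-3p, miR-155-5p and miR-142-3p in the 22 tumours with a stated pathology (x axis), coloured by genotype, with a dotted line at the floor. Spindloid and intermediate tumours lie between 9.21 and 10.40 for miR-223-3p, and the 3 solid nodular carcinomas have the lowest miR-155-5p levels, 3.60 to 3.73.

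Some markers of other cell types were also called in this contrast. Of 6 mesenchymal miRNAs, 1 was lower in Met than in Trp53 tumours and none was higher (miR-199b-5p, -2.16, limma, adjusted p = 0.0445), and of 7 epithelial miRNAs 3 were higher and none lower. Over all 330 tested miRNAs, 5.45% were lower and 4.55% higher. The mesenchymal list did not go one way, since miR-143-3p was 0.84 and miR-145-5p 0.44 in Met minus Trp53 (limma, adjusted p = 0.124 and 0.0822), while the other 4 were between -2.16 and -1.38. The mean mesenchymal level per tumour ran from 4.63 to 7.73 in Met and from 5.92 to 7.83 in Trp53 tumours, and the mean epithelial level from 3.62 to 8.47 in Met and from 3.60 to 7.73 in Trp53 tumours. The median difference over the list was -1.48 for mesenchymal and 3.03 for epithelial miRNAs, beside 0.01 over all tested miRNAs. Neither of 2 endothelial miRNAs was called, nor any of 4 erythroid ones. Met minus Trp53 was 0.0 for miR-144-3p and miR-486-3p, which could give no call, and -0.0059 for miR-144-5p. The erythroid count therefore rests on miR-451 of red blood cells, with a difference of -0.41 (limma, adjusted p = 0.712). The part of these cell types in the miR-223-3p difference was not tested.

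Other miRNAs of blood cells did not move one way. Of 14 tested, 1 was higher and 3 were lower in Met than in Trp53 tumours, beside 4.55% and 5.45% of all tested miRNAs. The median difference over the 14 was -0.18. The lower ones were miR-221-3p by -2.98, miR-222-3p by -2.49 and miR-125b-5p by -1.52, all of which tumour and stromal cells also make, and the higher one was miR-146b-5p by 3.24. Which cells made these miRNAs, miR-146b-5p included, was not tested. Against normal gland 1 of 14 was higher in tumours, miR-21-5p by 2.13, beside 4.85% of all tested miRNAs, and none was lower. Muscle markers were lower in tumours for 5 of 5, adipose markers for 2 of 3 and endothelial markers for 2 of 2. Among erythroid markers 1 of 4 was lower and among mesenchymal ones 2 of 6, beside 7.88% of all tested miRNAs. The difference was only -0.26 for miR-499-5p of muscle and -0.12 for miR-486-3p of red blood cells. The filter takes in any miRNA detected in both pools, so a marker high in the pools could pass through them alone. These counts are a description and support no difference from normal.

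The spread of the members over the 23 tumours was set beside that of all tested miRNAs. The SD was 1.18 for miR-223-3p, 1.06 for miR-142-3p, 0.93 for miR-155-5p, 0.92 for miR-150-5p and 0.73 for miR-142-5p, beside a median of 0.52 over tested miRNAs. Without Met tumour 5 the SD was 0.0432 for miR-150-5p and 0.476 for miR-142-5p, both below that median.

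Pairs of members were compared over the 23 tumours, 10 pairs in all. The 2 arms of miR-142 went together, with Pearson's r of 0.77 and Spearman's rho of 0.88 (permutation test, both adjusted p = 0.0001), and r was 0.77 without the 2 tumours farthest out in miR-142-3p. miR-155-5p and miR-223-3p had r of 0.60 and rho of 0.74 (permutation test, adjusted p = 0.0143 and 0.0004), with r of 0.55 without the farthest 2, 0.51 after subtracting genotype means and 0.57 after subtracting slide means. Met tumour 7 stood off this relation, with miR-155-5p at 6.28 and miR-223-3p at 7.11.

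miR-142-3p and miR-223-3p had r of 0.52 and rho of 0.46 (permutation test, adjusted p = 0.0287 and 0.0968), and r was 0.45 without the farthest 2. miR-142-3p and miR-155-5p had r of 0.50 and rho of 0.43 (permutation test, adjusted p = 0.0287 and 0.0968), falling to 0.38 without the farthest 2. Both pairs of a miR-142 arm with miR-150-5p rested on Met tumour 5, since r was 0.52 and 0.78 with it but 0.18 and 0.27 without it. The other 4 pairs had r between 0.07 and 0.19. In all, 6 of 10 pairs passed by Pearson's r and 2 of 10 by Spearman's rho. All tumours share their scaling and lie on 5 slides.

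**Figure D4:**
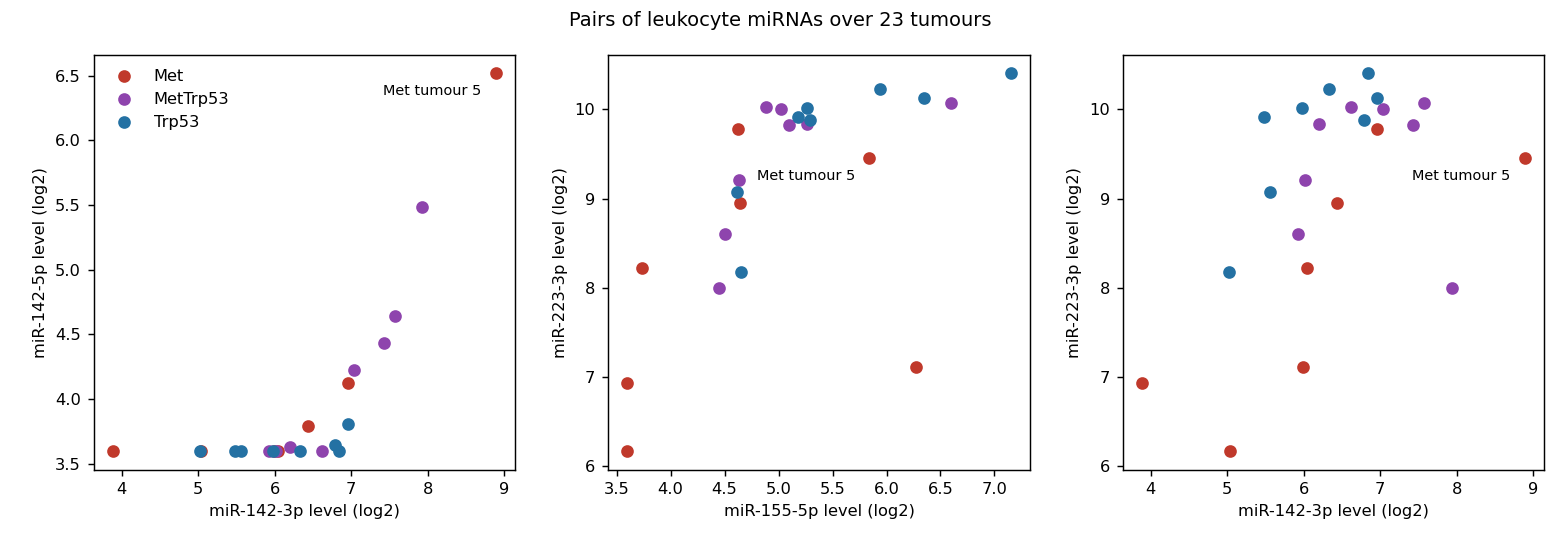
Levels (both axes, log2 scaled intensity) of 3 pairs of leukocyte miRNAs, 1 point per tumour, coloured by genotype. The 2 miR-142 arms rise together once miR-142-5p leaves the floor, and Met tumour 5 is the highest of all tumours for both.

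Outside the members, the miRNAs whose levels over the tumours were most like miR-223-3p were miR-199b-5p, miR-221-3p and miR-126-3p, out of 264 detected on at least 12 tumours. Their r was 0.90, 0.89 and 0.88, and 0.87, 0.82 and 0.86 after subtracting genotype means. miR-199b-5p is a mesenchymal and miR-126-3p an endothelial marker, and miR-221-3p is on the list of other blood cell miRNAs. For miR-142-3p the most alike were miR-29b-3p with r of 0.69, miR-342-3p with 0.66, a miRNA of lymphocytes and other blood cells, and miR-3963 with 0.65. For miR-155-5p they were miR-130a-3p with 0.63, miR-199b-5p with 0.60 and miR-99b-5p with 0.60. For miR-142-5p they were miR-3963, miR-706 and miR-5115 with r of 0.76, 0.74 and 0.72, of which miR-706 and miR-5115 had 0.12 and -0.07 without Met tumour 5. Those most like miR-150-5p were miR-5130, miR-5115 and miR-1894-3p with r of 0.96, 0.95 and 0.93, and -0.11, -0.02 and -0.16 without Met tumour 5.

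Met tumour 5, the only scirrhous adenocarcinoma, was the highest tumour in miR-142 and miR-150-5p, though not only in these. It held the highest tumour level for 36 of 325 tested miRNAs that varied, beside 34 in MetTrp53 tumour 4 and 32 in Met tumour 1. The level in Met tumour 5 was 8.90 for miR-142-3p, 6.52 for miR-142-5p and 8.01 for miR-150-5p. These were the highest of the 23 tumours for all 3, where the next tumours had 7.93, 5.48 and 3.78. Of the other blood cell miRNAs, miR-342-3p, at 8.79, and miR-146a-5p, at 6.34, each ranked 2 of 23 in Met tumour 5. The mean over the 14 tested ones was 6.53 there and ranked only 12 of 23. miR-223-3p, at 9.45, ranked 13 of 23 and miR-155-5p, at 5.84, ranked 6. So the high members were miR-142 and miR-150-5p, without miR-223-3p. miR-451 of red blood cells was 7.94 there and ranked 22 of 23. Its endothelial mean, 7.06, was the highest of the tumours. The part of other tissue in that sample in these levels was not tested.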

How the data were processed

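Total RNA of 23 mammary tumours and 2 pools of normal mammary tissue was read on Agilent miRNA arrays in the Cy3 channel, per the labels' protocols. The deposited scanner files give an intensity per spot from Agilent Feature Extraction 10.7.3.1, with a processed signal that is background-subtracted and spatially detrended and not normalised between arrays, per the file headers. The authors' deposited table holds log2 values whose centring and normalisation are not given in the sources used here, where the submitters' processing notes name RMA with no role, and its columns had medians between 1.72 and 1.91 and followed the scanner values with r between 0.983 and 0.995. Group, parity and pathology were taken from the labels, and tumours were numbered in accession order.

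Each array held 49324 spots, of which the mouse miRNA spots, 40 per miRNA, were used. Spots carrying an outlier flag were dropped, and the processed signal was averaged over the remaining spots of a probe. Each probe value was divided by the array's 75th percentile over 221 probes well above background on all 25 arrays. It was then floored at 0.02117 of that percentile, put on the log2 scale and averaged over the probes of a miRNA. A miRNA was detected where the scanner software says so. The 330 tested miRNAs passed a filter of detection in 7 or more tumours or in both pools. Differences were fitted with limma 3.58.1 in R 4.3.3 in 1 model of 4 groups, and spindloid pathology in the 22 tumours of stated pathology, with genotype in the model. P-values were adjusted over all tested miRNAs by Benjamini and Hochberg, with a threshold of 0.05. Correlations used 100000 permutations, two-sided, in scipy 1.17.1. The fit was tested on simulated data. The arrays lie on 5 slides scanned on 3 days. Alternatives covered background correction, scaling, floor, filter, batch, parity, pathology and single arrays. Normexp used the median spot and background signals, as the files read here have no mean signal column.

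The members and the marker lists were chosen with earlier results of these data known. Named miRNAs are the members, the 3 most like each, and at most 3 called miRNAs of each marker list. miR-451, miR-144-3p, miR-144-5p, miR-143-3p, miR-145-5p and miR-146a-5p were added after their values were seen.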

Additional observations from a re-analysis of the deposited data

Results flagged for a closer look

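In 15 sets of values, 1 for each member in each tumour genotype, a tumour far from the rest of its genotype was found 6 times. Chance gives about 1 in 20 where values are spread, but in miR-142-5p and miR-150-5p most of the 23 tumours are tied at the floor, where a single value above it easily stands apart, so the 5 found in them are not set against that rate. Met tumour 5 lay far above the other Met tumours in miR-142-5p, at 6.52, and in miR-150-5p, at 8.01. MetTrp53 tumour 4 lay above the other MetTrp53 tumours in miR-155-5p, at 6.60, and in miR-150-5p, at 3.78. Trp53 tumour 1 was the only Trp53 tumour above the floor in miR-150-5p, at 3.70, and Trp53 tumour 6 had the highest miR-142-5p of its genotype, at 3.81.

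The difference from normal gland was not the same in 2 genotypes for miR-223-3p. Met minus normal was lower than Trp53 minus normal by a difference of -1.64, which is the Met minus Trp53 contrast itself and was called in limma (adjusted p = 0.0422).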

How the results depend on the processing

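Depth and design limit these results: dim arrays of slide 1, a floor that holds miR-150-5p and miR-142-5p in most tumours, and 2 normal pools. Met minus Trp53 of miR-223-3p stayed negative in all 16 alternatives, between -1.79 and -0.90, and was called in 10 of them. It held 0 calls among the members under the floor 2 times higher (limma, adjusted p = 0.0535), with no detection filter (0.0547), without slide 1 (0.0871), without the solid nodular carcinomas (0.302), with parity (0.292) and with spindloid pathology as a covariate (0.0903). Leaving out 1 array gave 0 to 1 called members there, and likewise for MetTrp53 minus Met, tumours minus normal, Met minus normal and the F-test. MetTrp53 minus Met of miR-223-3p was 1.64 and called without Met tumour 2 (limma, adjusted p = 0.0319). The F-test called 1 member, miR-223-3p, among miRNAs detected on all arrays (limma, adjusted p = 0.0428). miR-150-5p was the 1 member called in tumours, MetTrp53 and Trp53 minus normal with the percentile over all mouse probes (-1.78, -1.97, -1.96), in the authors' deposited table (-2.81, -2.97, -2.96) and with the floor 4 times lower (-2.93, -3.02, -3.18). It passed the filter only through the pools, so these calls support no difference from normal. Of 10 member pairs, 6 passed, against 3 with normexp, with genotype means subtracted and when the percentile ran over all mouse probes, and 2 with the floor 2 times higher and slide means subtracted.

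Differences that were not called changed sign as follows. With normexp, miR-142-5p was 0.28 in tumours minus normal, 0.23 in Trp53 minus normal and -0.21 in spindloid minus other pathology, miR-142-3p 0.11 in Met minus normal and miR-150-5p -0.0902 in MetTrp53 minus Trp53. With the percentile over all mouse probes, miR-142-3p was -0.27 in tumours minus normal and -0.0495 in Met minus Trp53, miR-150-5p was -0.0077 in MetTrp53 minus Trp53, and miR-142-5p was -0.16 in Met minus normal, -0.28 in MetTrp53 minus normal, -0.12 in MetTrp53 minus Met and -0.06 in spindloid minus other pathology. With quantile normalisation, miR-142-5p was -0.12 in Met minus normal and -0.11 in MetTrp53 minus normal, and miR-150-5p -0.0069 in MetTrp53 minus Trp53. In the authors' table, Met minus normal was -0.0520 for miR-142-5p and -0.15 for miR-155-5p, Met minus Trp53 of miR-142-3p was -0.0256, and miR-150-5p was -0.0058 in MetTrp53 minus Trp53 and 0.0131 in spindloid minus other pathology. With the floor 4 times lower, miR-142-5p was 0.11 in tumours minus normal and miR-155-5p -0.0042 in Met minus normal. With the floor 2 times higher, miR-142-5p was 0.13 in tumours minus normal, -0.16 in MetTrp53 minus Met and -0.14 in spindloid minus other pathology, and miR-142-3p 0.01 in Met minus normal. With the slide as a block, miR-142-3p was -0.0904 in tumours minus normal and -0.0843 in Met minus Trp53, miR-142-5p -0.0474 in MetTrp53 minus Met, and miR-150-5p -0.0380 in MetTrp53 minus Trp53 and 0.0725 in spindloid minus other pathology. With the scan date as a block, miR-142-3p was -0.41 in tumours minus normal, -0.0265 in MetTrp53 minus normal and -0.10 in Met minus Trp53, miR-142-5p -0.13 in Met minus normal and -0.11 in MetTrp53 minus normal, miR-155-5p -0.0666 in Met minus normal and miR-150-5p -0.0577 in MetTrp53 minus Trp53. Without slide 1, miR-142-3p was -0.82 in tumours minus normal and -0.57 in MetTrp53 minus normal, miR-223-3p -0.0836 in tumours minus normal, and miR-142-5p -0.39 in Met minus normal, -0.36 in MetTrp53 minus normal and -0.0491 in spindloid minus other pathology. Without the solid nodular carcinomas, miR-142-5p was 0.0012 in tumours minus normal, -0.36 in MetTrp53 minus Met and -0.0513 in spindloid minus other pathology, miR-142-3p 0.79 in Met minus normal and -0.23 in MetTrp53 minus Met, miR-223-3p 0.28 in Met minus normal and miR-155-5p -0.29 in MetTrp53 minus Met. With the title number as a random block (consensus correlation 0.356), Met minus Trp53 of miR-142-3p was -0.0014, and with parity it was -0.57, with -0.0030 for miR-150-5p in MetTrp53 minus Trp53. The cause was not tested.

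Leaving out 1 array, which for a pool leaves 1 pool that is assumed to vary like the other groups, gave ranges across 0: for miR-142-3p, tumours minus normal from -1.06 to 1.26, Met minus normal from -1.26 to 1.05, MetTrp53 minus normal from -0.60 to 1.72, Trp53 minus normal from -1.32 to 0.99 and Met minus Trp53 from -0.39 to 0.44. For miR-142-5p they were -0.62 to 0.37, -0.47 to 0.52, -0.44 to 0.55 and -0.96 to 0.0308 against normal, for tumours together, Met, MetTrp53 and Trp53 in that order, -0.16 to 0.43 in MetTrp53 minus Met and -0.0409 to 0.20 in spindloid minus other pathology. For miR-150-5p they were -0.0129 to 0.72 in Met minus Trp53, -0.71 to 0.0224 in MetTrp53 minus Met, -0.0129 to 0.0224 in MetTrp53 minus Trp53 and -0.14 to 0.0465 in spindloid minus other pathology. For miR-223-3p they were -0.20 to 1.28 in tumours minus normal and -1.19 to 0.28 in Met minus normal. Over all miRNAs, Met minus Trp53 called 33, against 21 with normexp, 18 without slide 1, 8 without the solid nodular carcinomas, 10 with parity and 18 with spindloid pathology. Comparisons with normal called 41 to 49, against 12 to 17 without slide 1, 26 to 30 with normexp and 21 to 30 among the 160 miRNAs detected on all arrays, where fewer miRNAs were tested. MetTrp53 minus Met called 0, against 16 in the authors' table, 7 with the floor 4 times lower and 6 among miRNAs detected on all arrays, and spindloid minus other pathology called 0, against 6 with normexp and 16 without intermediate tumours. The F-test called 19, against 32 in the authors' table and with the floor 4 times lower, 12 with slide or spindloid pathology in the model, 4 without slide 1, 1 with parity and 0 without the solid nodular carcinomas. The median of tumours minus normal over all miRNAs was 0.14, 0.37 with normexp, 0.02 when the percentile ran over all mouse probes and 0.29 with the floor 4 times lower. The probe with the higher signal, slide 1 and the solid nodular carcinomas were chosen after seeing the data. No paired analysis was possible because the labels give the groups no shared replicate numbers, and samples were matched by slide only.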

Other observations

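Both pairs of Trp53 tumours that share a title number had miR-142-5p and miR-150-5p at the floor in all 4 tumours. For miR-223-3p, Trp53 tumour 2 had 8.17 and tumour 3 had 9.08, and Trp53 tumour 4 had 10.23 and tumour 8 had 10.01. For miR-155-5p the first pair had 4.66 and 4.62 and the second pair 5.94 and 5.27.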
